A study of Mus musculus with 29 samples.

Results

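The genes described here are 10 immediate early genes: the early growth response genes Egr1, Egr2, Egr3 and Egr4, the AP-1 genes Fos, Fosb and Junb, and Arc, Npas4 and Nr4a1. They were chosen by name, with earlier results of these data known. Each was taken from the probe sets annotated with that symbol alone, and they are 10 of 19938 genes that could be tested in this way. Each had 1 such probe set (10454782 for Egr1, 10363735 for Egr2, 10416251 for Egr3, 10545859 for Egr4, 10397346 for Fos, 10560481 for Fosb, 10580282 for Junb, 10429491 for Arc, 10464905 for Npas4 and 10427035 for Nr4a1), so no choice between probe sets was needed.

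Immediate early genes are transcribed within minutes of synaptic activity, without need of new protein, when calcium, cyclic AMP and ERK kinase signals reach the factors CREB and SRF already bound at their promoters. Most encode transcription factors that pass the signal on to slower genes, and some, such as Arc, act at the synapse itself. In the striatum dopamine and glutamate drive them in projection neurons, and their RNA falls back quickly once activity ends, so that a level at dissection reflects the recent past of an animal.

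The HdhQ150 knock-in line models Huntington's disease through a long CAG tract placed in Htt, the mouse huntingtin gene, so the mutant allele is under its own promoter in every cell. HdhQ150 mice were compared with wild-type mice on the mixed background named 129/Ola x C57BL6/J, and the labels give neither the number of mutant alleles nor the litters. Total RNA of the caudate nucleus was hybridised to 29 Affymetrix arrays, 1 per mouse: HdhQ150 and wild type at 6 months (5 and 5 mice), at 12 months (6 and 5) and at 18 months (4 and 4). Each age was a separate set of animals, 23 mice were labelled female and 6 male, and both 18-month groups were female. The labels name no treatment or stimulus for any group.

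Levels below are log2 values after RMA normalization, so a difference of 1 is a factor of 2, and levels of different genes cannot be set against each other. Array medians lay between 6.91 and 7.05. Htt averaged 8.77, 8.65 and 8.85 in HdhQ150 mice at the successive ages, against 9.14, 9.08 and 9.16 in wild-type mice, with no overlap at any age. The tissue carried striatal markers on every array, with Penk between 11.33 and 12.81, Drd2 between 10.02 and 11.53 and Drd1 between 8.95 and 10.36. The cortical glutamate transporter gene Slc17a7 was also well above the array median on most arrays and varied widely, from 6.82 to 11.77. The array of mouse WT-454 (wild type, 12 months) correlated least well with its group, at a mean of 0.945 where its fellows reached up to 0.978. Mouse 1023 (HdhQ150, 6 months) bore a female label but its Xist lay in the males' range. Where leaving out either mouse changes how many members pass, the larger changes are given, here or in the closing section.

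The stretches just before the transcription starts of these genes were searched for the short elements that SRF, CREB, Egr and AP-1 proteins are known to bind, and 4 are printed: Egr2, whose level separated the genotypes, Nr4a1 and Npas4, which with Egr2 had the largest differences between 18 and 12 months in wild-type mice, and Fos, whose genotype groups lay together at 12 months. RefSeq promoter windows on build GRCm38.p6 were matched for 7 of the 10 members, with 11 windows, since Egr2 has 5 annotated starts. Egr1 was left out of the search, and no window was matched for Egr3 or Arc. Elements of these genes, and elements further upstream in any member, are therefore not counted. Each sequence covers the 250 bases before a start, 5′ to 3′ on the strand of the gene. Capitals mark matches, on either strand, to a CArG box (the SRF element), to TGACG (the short CREB element, which reads CGTCA on the other strand), to GCGNGGGCG (the element bound by Egr proteins) and to TGANTCA (the AP-1 element).
Egr2, chr10:67537619-67537868, plus strand: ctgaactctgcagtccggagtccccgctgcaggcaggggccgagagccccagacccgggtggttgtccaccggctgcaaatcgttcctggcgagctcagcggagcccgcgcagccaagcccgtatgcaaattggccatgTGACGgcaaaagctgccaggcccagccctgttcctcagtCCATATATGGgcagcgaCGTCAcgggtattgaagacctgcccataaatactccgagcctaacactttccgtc
Fos, chr12:85473640-85473889, plus strand: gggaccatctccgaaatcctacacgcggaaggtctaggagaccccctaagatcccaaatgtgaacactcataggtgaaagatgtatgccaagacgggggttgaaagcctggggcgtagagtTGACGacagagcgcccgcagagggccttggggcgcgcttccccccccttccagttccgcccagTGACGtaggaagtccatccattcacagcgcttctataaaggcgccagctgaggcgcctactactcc
Npas4, chr19:4989972-4990221, minus strand: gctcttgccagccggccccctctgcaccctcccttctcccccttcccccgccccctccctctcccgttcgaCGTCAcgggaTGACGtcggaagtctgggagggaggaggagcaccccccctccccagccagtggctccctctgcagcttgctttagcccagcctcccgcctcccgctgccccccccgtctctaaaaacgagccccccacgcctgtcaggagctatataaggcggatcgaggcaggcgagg
Nr4a1, chr15:101266596-101266845, plus strand: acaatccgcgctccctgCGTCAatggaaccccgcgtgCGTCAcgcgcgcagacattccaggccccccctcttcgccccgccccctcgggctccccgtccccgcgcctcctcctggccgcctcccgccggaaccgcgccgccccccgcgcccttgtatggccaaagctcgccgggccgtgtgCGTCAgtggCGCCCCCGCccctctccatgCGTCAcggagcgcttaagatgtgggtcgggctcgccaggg
Egr2 held 2 TGACG matches around a CArG box that begins at -72 from this start. A further Egr2 window upstream held another CArG box. Nr4a1 held 4 TGACG matches and a match to the Egr element, Fos held 2 TGACG matches, and Npas4 held 2. The letters TGACG were in at least 1 window of 7 of the 7 matched members, against 19.8% of 27025 genes in the same RefSeq table. A CArG box was in 1 of the 7 (Egr2), against 1.62% of genes, and the Egr element in 2 (Fosb and Nr4a1), against 5.33%. The full CREB element TGACGTCA, which contains the short one, was in 0 of the 7 (1.77% of genes), TGANTCA in 0 (7.82%) and the Nr4a element AAAGGTCA in 0 (1.55%). A match is a description of these letters and not a measured binding site.

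Egr2 was the member that separated the genotypes. It encodes a zinc-finger factor best known for its part in myelinating Schwann cells and hindbrain patterning, and it is induced by activity in forebrain neurons. At 12 months its level lay between 7.02 and 7.51 in the 6 HdhQ150 mice, with a median of 7.33, against 8.16, 8.44, 8.10, 8.57 and 8.66 in the wild-type mice. The groups did not overlap, and the gap between the highest HdhQ150 mouse and the lowest wild-type mouse was wider than the whole range of either group. Egr2 averaged 7.31 ± 0.16 in HdhQ150 mice (SD, n = 6) and 8.39 ± 0.25 in wild-type mice (n = 5). The fitted difference, which includes a term for sex and so departs slightly from the difference of the means, was -1.04 (SE 0.157, limma adjusted p = 0.000282), or 2.06-fold lower. In this bulk tissue, fewer cells of a type and less RNA per cell cannot be told apart.

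At 6 months Egr2 stood at 7.53, 7.49, 8.06, 7.35 and 7.06 in HdhQ150 mice, against 7.26, 7.55, 8.17, 8.23 and 8.12 in wild-type mice. The groups overlapped, with mice WT-1002 and WT-1004, both male, at the level of most HdhQ150 mice. The difference was -0.41 (95% interval -0.75 to -0.08, limma adjusted p = 0.255). At 18 months Egr2 stood at 6.74, 6.59, 6.51 and 6.34 in HdhQ150 mice, against 6.90, 6.67, 7.33 and 6.66 in wild-type mice. All of these were low, and the groups overlapped narrowly, 1 HdhQ150 mouse being above 2 wild-type mice. The group means, 6.54 and 6.89, lay below the lowest array median of 6.91, and whether this low level limits the difference was not tested. The genotype difference at 18 months was -0.35 (interval -0.72 to 0.03, limma adjusted p = 0.901).

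The 12-month call on Egr2 held under all 44 other settings tried, which left out each mouse in turn or changed the model. Without WT-454 and 1023 together, with females alone, and with a mean of striatal or of cortical marker genes as a covariate, Egr2 still passed at 12 months, and the differences with those covariates were -1.04 and -0.96 (limma adjusted p = 0.00386 and 0.001). The striatal covariate was chosen after seeing the data. Its own values at 12 months did not overlap between genotypes (9.93 to 10.13 in HdhQ150 mice, 10.2 to 10.39 in wild-type mice). Genotype and striatal marker level are therefore not told apart by that fit. The Egr2 difference at 12 months was not shown to exceed those at the other ages. The test of the change gave -0.63 between 6 and 12 months (limma unadjusted p = 0.0104, adjusted 0.709) and 0.70 between 12 and 18 months (unadjusted p = 0.00721, adjusted 1). From high to low, the Egr2 group means ran 8.39 in wild type at 12 months, 7.87 in wild type at 6, 7.50 in HdhQ150 at 6, 7.31 in HdhQ150 at 12, 6.89 in wild type at 18 and 6.54 in HdhQ150 at 18. Each group overlapped its neighbour in that order, so none of the neighbouring steps was larger than the spread between mice.

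**Figure D1:**
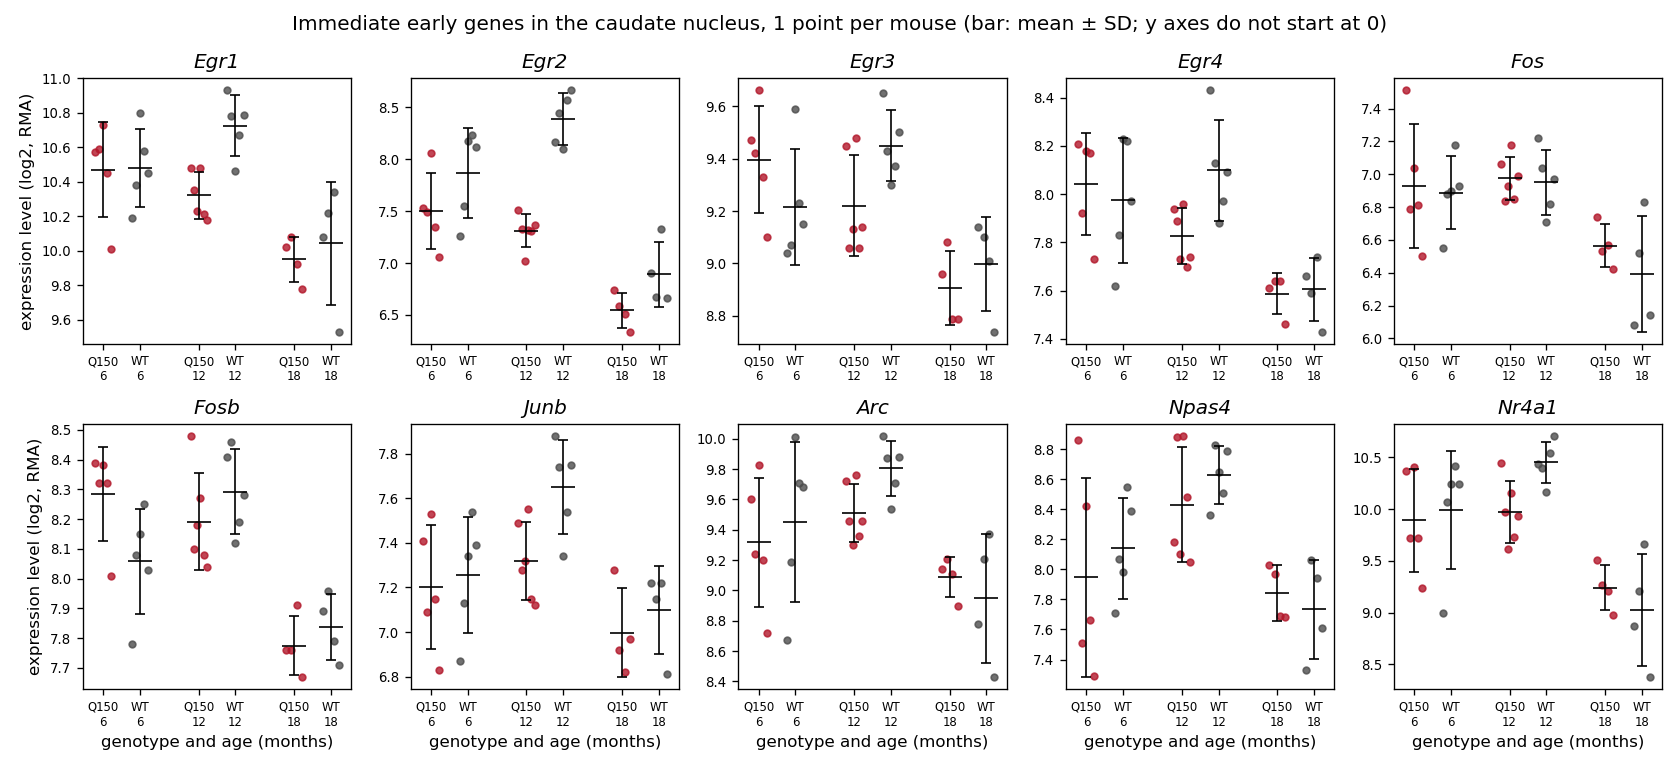
Level (log2, RMA) of each of the 10 genes in every mouse, by genotype and age in months, with HdhQ150 mice in red and wild-type (WT) mice in grey, and bars for the mean ± SD (4 to 6 mice a group). At 12 months Egr2 lies between 7.02 and 7.51 in HdhQ150 mice, below the wild-type mice, and in each panel the lowest mean is that of an 18-month group.

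The other members separated the genotypes less. At 12 months 1 of 10 members, Egr2, passed the threshold (adjusted p under 0.05), and it was lower, as were 0.602% of all genes. It was also the 1 member whose groups did not overlap, as 0.908% of genes did in that direction. In the higher direction 0 members passed (0.336% of genes) and 0 were free of overlap (0.687%). Of the 10 differences 9 were negative, as were 47.3% of those of all genes, with a median of -0.27 against 0.0059 over all genes. The members' levels were correlated from mouse to mouse, as given below, so these signs are not separate observations. In the same comparison 5 members had an unadjusted p under 0.05 (limma), as did 1790 of 19938 genes. The genes of all kinds that passed numbered 187, against 440 without WT-454 and more without WT-454 and 1023 together, with Egr2 still the 1 member. The 5 members were Egr1, Egr2, Egr3, Egr4 and Junb.

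Egr1, the family member most used as a mark of neuronal activity, lay between 10.18 and 10.48 in HdhQ150 mice at 12 months, with a median of 10.29, against 10.93, 10.78, 10.46, 10.67 and 10.79 in wild-type mice. A single wild-type mouse, WT-488, was within the HdhQ150 range. The difference was -0.41 (SE 0.126, limma adjusted p = 0.137), and it passed when only the 2 groups compared were fitted (-0.43, limma adjusted p = 0.0163). Egr3 and Egr4, which act in learning, muscle spindle development and fertility in mice, differed by -0.23 (SE 0.105) and -0.27 (SE 0.105), with limma adjusted p of 0.508 and 0.348. Mean Egr4 was 7.83 ± 0.12 in HdhQ150 mice (n = 6) and 8.10 ± 0.21 in wild-type mice (n = 5), and the groups overlapped.

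Among the AP-1 genes, Junb, which encodes a partner of the Fos proteins, averaged 7.32 ± 0.17 in HdhQ150 mice at 12 months and 7.65 ± 0.21 in wild-type mice. Its difference of -0.32 (SE 0.126, limma adjusted p = 0.342) did not pass. Fos, the classical activity marker, averaged 6.98 ± 0.13 in HdhQ150 mice and 6.95 ± 0.20 in wild-type mice, a difference of 0.04 (interval -0.25 to 0.32). The lower bound is far from the difference of Egr2. Fos lay at the array medians (6.91 to 7.05), and whether this low level hides a difference was not tested. Fosb, whose truncated product accumulates in the striatum under repeated stimulation, differed by -0.11 (interval -0.29 to 0.08).

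Nr4a1, an orphan nuclear receptor abundant in the striatum, lay between 9.62 and 10.45 in HdhQ150 mice at 12 months, with a median of 9.95, against 10.44, 10.40, 10.17, 10.54 and 10.71 in wild-type mice. Mouse 451 alone among the HdhQ150 mice reached the middle of the wild-type range, and the difference of -0.46 did not pass (SE 0.223, limma adjusted p = 0.561). Arc, which promotes the removal of AMPA receptors from synapses, differed by -0.27 (interval -0.65 to 0.11). Npas4, a factor induced by calcium entry that shapes inhibitory synapses, differed by -0.17 (interval -0.59 to 0.26), with mice 453 and 464 above the wild-type range at 8.88 and 8.89.

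At 6 months 0 of 10 members passed (limma), against 0.0201% of genes lower and 0.00502% higher, and 2 members had an unadjusted p under 0.05, as did 2738 of 19938 genes. That background rests on single arrays: 5 genes passed, against 188 without mouse 1023, 868 without WT-454 and 1023 and 1330 with array weights, and 0 members passed in each of these. The 2 members were Egr2 and, in the opposite direction, Fosb, at 8.39, 8.32, 8.38, 8.32 and 8.01 in HdhQ150 mice against 7.78, 8.08, 8.15, 8.25 and 8.03 in wild-type mice. The Fosb difference was 0.24 (interval 0.05 to 0.43, limma adjusted p = 0.254), and mouse 1023, whose sex did not match its label, was the 1 HdhQ150 mouse inside the wild-type range. The 10 differences ran from -0.41 to 0.24 with a median of -0.03, and the groups overlapped for 10 of 10 members (free of overlap, 1.35% of genes lower and 1.84% higher).

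At 18 months 0 of 10 members passed (limma), against 0.0802% of genes lower and 0.0552% higher, and 0 had an unadjusted p under 0.05, against 1159 of 19938 genes. The differences ran from -0.35 for Egr2 to 0.21 for Nr4a1, with a median of -0.04, and the groups overlapped for 10 of 10 members (free of overlap, 1.5% of genes lower and 2.2% higher). With 4 mice a group the 95% intervals were wide, from -0.32 to 0.74 for Nr4a1. The change of the genotype difference passed for 0 of 10 members between 6 and 12 or between 12 and 18 months (limma), as for 0.00502% of genes lower and 0% higher in the first and 0% either way in the second. Its unadjusted p was under 0.05 for 5 members between 6 and 12 months (1297 of 19938 genes) and for 1 between 12 and 18 months (412 genes). All 10 changes between 12 and 18 months were positive (52.4% of all genes were negative), from 0.05 for Fosb to 0.70 for Egr2, but with array weights 2 of the 10 were negative, the lowest at -0.07.

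**Figure D2:**
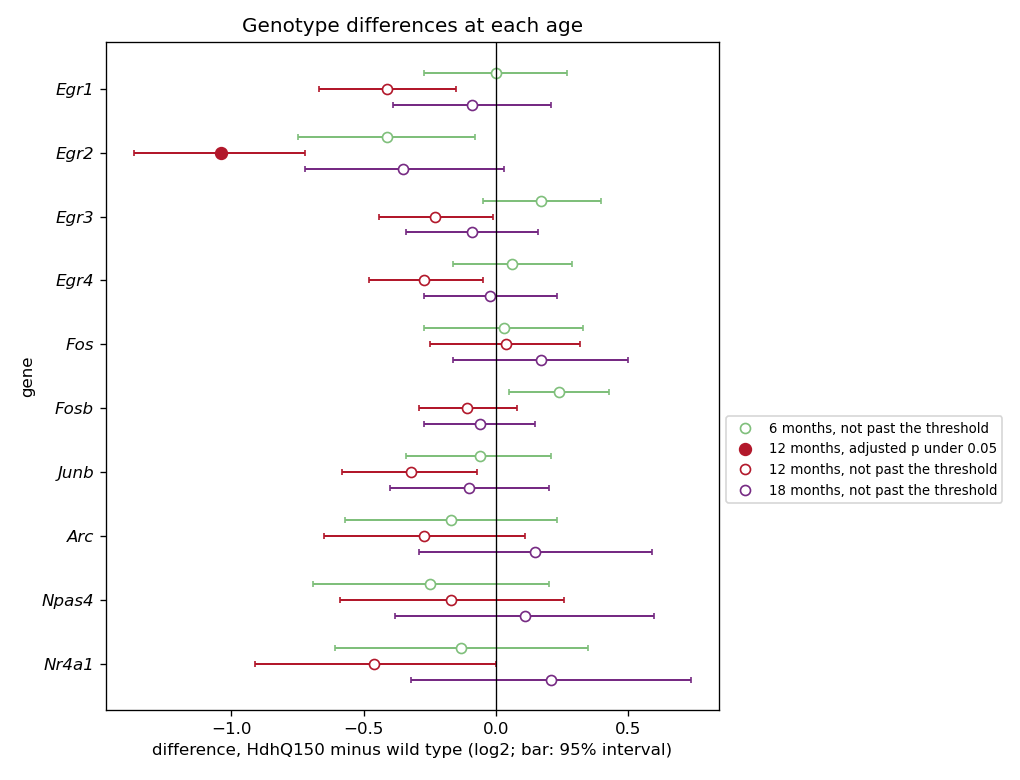
Difference in level, HdhQ150 minus wild type (log2, with 95% intervals), for the 10 genes at 6, 12 and 18 months, filled where the limma adjusted p is under 0.05. Egr2 at 12 months, at -1.04, is the 1 filled point, and 9 of the 10 differences at 12 months lie below 0.

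The members were lower in the oldest mice of both genotypes. At 18 months against 12 months 10 of 10 members were lower in HdhQ150 mice (55.7% of all genes) and 10 of 10 in wild-type mice (53.6%). These signs are not separate observations, since the members were correlated from mouse to mouse. In HdhQ150 mice 2 of 10 passed, Egr2 and Fosb, as did 1.61% of all genes in that direction, and 10 of 10 had an unadjusted p under 0.05 (limma), as did 3554 of 19938 genes. In wild-type mice 10 of 10 passed, as did 2.07% of genes. The median difference over the members was -0.42 in HdhQ150 mice (all genes, -0.020) and -0.62 in wild-type mice (all genes, -0.011). In 8 of 10 members every 18-month HdhQ150 mouse lay below every 12-month one (3.41% of genes), and in 9 of 10 the same held in wild-type mice (2.54%). In the other direction 0 members passed, where 4.18% of genes did in HdhQ150 mice and 3.81% in wild-type mice, and 0 were free of overlap, where 4.76% and 4.13% of genes were.

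In HdhQ150 mice Egr2 fell by 0.84 (SE 0.172, limma adjusted p = 0.00221), from the values given above. Fosb stood at 7.76, 7.76, 7.91 and 7.67 in HdhQ150 mice at 18 months, against 8.04 to 8.48 with a median of 8.14 at 12 months, and fell by 0.41 (SE 0.0965, limma adjusted p = 0.00797). Nr4a1 stood at 9.51, 9.27, 9.21 and 8.98 at 18 months, all below the lowest 12-month mouse at 9.62. Its difference of -0.79 narrowly missed the threshold (limma adjusted p = 0.0534), and that of Npas4 was -0.67 (adjusted 0.0854). The count of 2 grew to 4 without mouse 1023 and to 4 without WT-454, neither of which is in these groups, and to 9 without both.

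In wild-type mice Egr2 differed most, by -1.54 (SE 0.175, limma adjusted p = 3.78e-06), or 2.91-fold lower at 18 months. Nr4a1 stood at 8.87, 9.21, 9.66 and 8.38 at 18 months, against 10.44, 10.40, 10.17, 10.54 and 10.71 at 12 months. The 18-month mice spread over more than a log2 unit and still lay below every 12-month mouse, and Nr4a1 fell by 1.45 (SE 0.249, limma adjusted p = 0.000379), 2.74-fold. Npas4 stood at 7.33, 8.06, 7.94 and 7.61 at 18 months, against 8.36, 8.83, 8.65, 8.51 and 8.79 at 12 months, and fell by 0.94 (SE 0.232, limma adjusted p = 0.0104). Arc stood at 8.78, 9.21, 9.37 and 8.43 at 18 months, against 10.02, 9.87, 9.54, 9.71 and 9.88 at 12 months, and fell by 0.90 (SE 0.206, limma adjusted p = 0.00622). For both genes the 18-month mice were all below the 12-month mice. Mouse WT-431 was lowest of the 18-month group for Arc and Nr4a1, and WT-400 for Npas4.

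The Egr genes other than Egr2 and the AP-1 genes fell by smaller amounts in wild-type mice. Egr1 stood at 10.08, 10.22, 10.34 and 9.53 at 18 months, all below the 12-month minimum of 10.46, and fell by 0.68 (SE 0.14, limma adjusted p = 0.00243). Egr4 fell by 0.50, Egr3 by 0.45, Fos by 0.57, Junb by 0.56 and Fosb by 0.46, with limma adjusted p between 0.00349 and 0.0242. Fos was the 1 member whose age groups overlapped, and its call was lost when any of WT-454, WT-461, WT-400 or WT-431 was left out. Without WT-431 the calls on Egr3 and Junb were also lost, which left 7 of 10, and without WT-400 that on Npas4. The 2 genotypes' falls were not shown to differ: the change of the genotype difference between 12 and 18 months is the same contrast and passed for 0 members.

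**Figure D3:**
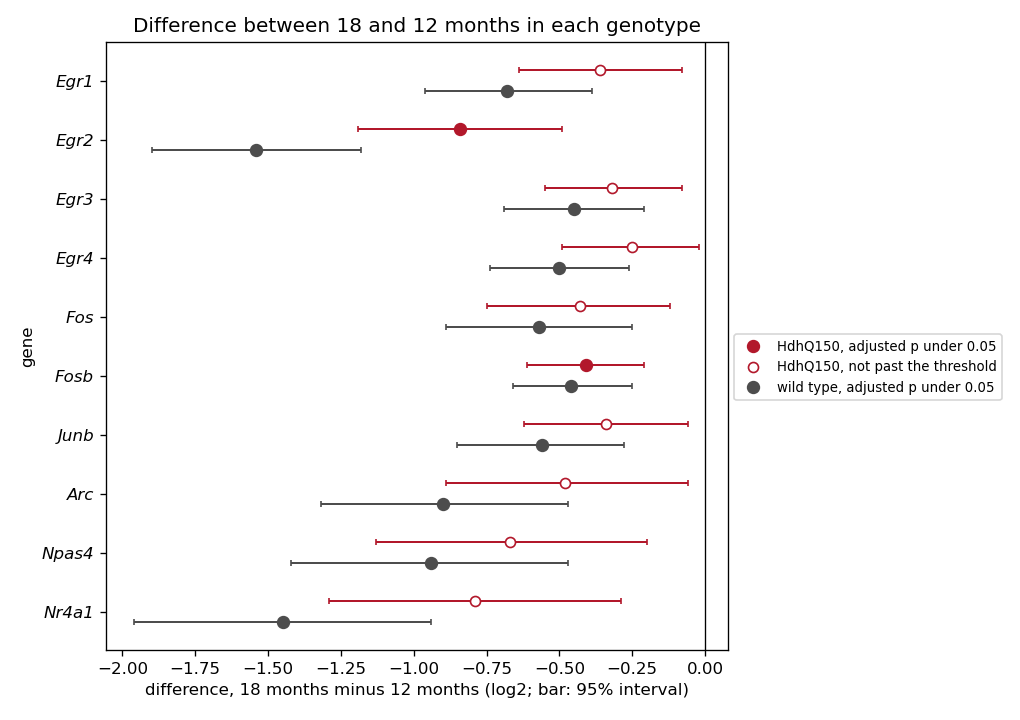
Difference in level between 18 and 12 months (log2, 18 minus 12, with 95% intervals) for the 10 genes in HdhQ150 mice (red) and wild-type mice (grey), filled where the limma adjusted p is under 0.05. All 20 differences lie below 0, from -1.54 for Egr2 in wild-type mice to -0.25 for Egr4 in HdhQ150 mice, and the filled points are Egr2 and Fosb in HdhQ150 mice and 10 of 10 genes in wild-type mice.

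Against 6 months the picture was less even. At 18 months against 6 months 5 of 10 members were lower in HdhQ150 mice (Egr1, Egr2, Egr3, Egr4 and Fosb, 2.37% of genes) and 2 of 10 in wild-type mice (Egr2 and Nr4a1, 2.95% of genes). None was higher, where 2.28% and 3.32% of genes were. Egr2, Egr3, Egr4 and Fosb were free of overlap in HdhQ150 mice (4.24% of genes) and 0 members in wild-type mice (4.36%), and in the higher direction 0 in both (5.08% and 4.73% of genes). Egr2 fell by 1.0 in HdhQ150 mice (SE 0.175, limma adjusted p = 0.00132) and by 1.07 in wild-type mice (SE 0.18, adjusted p = 0.000966). These counts rest on single mice: they were 2 in HdhQ150 mice without mouse 1016, 3 without 1001 or 426, and 6 in wild-type mice without WT-1002, 5 without 1023, 4 without 451 or WT-454, and 1 without WT-1018, WT-1020, WT-400 or WT-431.

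At 12 months against 6 months 0 of 10 members passed in HdhQ150 mice (limma; 11.9% of genes higher and 11.2% lower), and 1, Npas4, had an unadjusted p under 0.05 (0.52, adjusted p = 0.0721), as did 7066 of 19938 genes. The differences were 5 positive and 5 negative, but 10 positive with the cortical mean as a covariate, and 3 positive and 7 negative without WT-454 and 1023. The cortical mean itself did not overlap between these ages in HdhQ150 mice (8.22 to 8.96 at 6 months, 7.14 to 8.11 at 12). That fit therefore does not tell age from cortical marker level. In wild-type mice 10 of 10 differences were positive (43.5% of all genes were negative) and 2 passed, Egr2 at 0.47 (SE 0.165, limma adjusted p = 0.0347) and Junb at 0.38 (SE 0.132, adjusted p = 0.0328). That share is near the background, since 13.1% of all genes were higher and 12.6% lower in this comparison. Groups overlapped for 10 of 10 members in both genotypes (free of overlap, 6.61% of genes higher and 7.38% lower in HdhQ150 mice, 6.35% and 6.95% in wild-type mice). The signs were not stable: 3 of 10 were negative in labelled females alone, 2 with array weights and 2 without WT-454 and 1023. Neither call held without WT-454, WT-1002, WT-1004 or WT-527, or in labelled females alone. Without WT-461 the count was 1 and without WT-1011 it was 5. In the group means, 9 of 10 members were highest in wild-type mice at 12 months, and Fos in HdhQ150 mice at 12 months. The lowest mean was in HdhQ150 mice at 18 months for 6 members and in wild-type mice at 18 months for 4.

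Markers of cell type moved with age in the same arrays, so the age differences stand beside the following values. Of 28 striatal projection neuron markers, 24 were lower at 18 than at 12 months in HdhQ150 mice (median -0.63, against 1.61% of all genes lower) and 24 in wild-type mice (median -0.54, against 2.07%). Their mean level was 9.78, 10.08 and 9.44 in HdhQ150 mice at 6, 12 and 18 months, and 9.91, 10.29 and 9.72 in wild-type mice. Of 13 cortical excitatory neuron markers, 10 were higher at 18 than at 12 months in HdhQ150 mice (median 0.78, against 4.18% of all genes higher) and 7 in wild-type mice (median 0.78, against 3.81%). Their mean was 8.65, 7.56 and 8.74 in HdhQ150 mice and 8.71, 7.88 and 8.87 in wild-type mice. The cortical markers were thus lowest at 12 months, the age at which 9 of 10 members had their highest mean in wild-type mice. Markers of astrocytes, microglia, oligodendrocytes, vessels and choroid plexus had medians between -0.09 and 0.18 in the same comparison in HdhQ150 mice and between -0.04 and 0.15 in wild-type mice. In HdhQ150 mice 3 of 10 astrocyte, 3 of 11 microglia and 1 of 12 vessel markers were higher (4.18% of all genes). In wild-type mice 2 of 10, 1 of 11 and 0 of 12 were (3.81%). In both genotypes 0 oligodendrocyte and 0 choroid plexus markers passed, and 0 markers of these lists were lower.

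With the mean of the striatal markers as a covariate, the wild-type differences between 18 and 12 months ran from -1.52 for Egr2 to -0.54 for Fosb, and 0 of 10 passed (limma adjusted p from 0.107 to 0.785), and the HdhQ150 differences, from -0.82 to -0.42, did not pass either (adjusted p from 0.758 to 0.801). This covariate was chosen after seeing the data and its own values did not overlap between 12 and 18 months in either genotype, and in that fit 3 of 19938 genes passed in wild-type mice and 0 in HdhQ150 mice. With the cortical mean as a covariate 8 of 10 members passed in wild-type mice and 4 of 10 in HdhQ150 mice. The cortical mean did not overlap between 12 and 18 months either. It ran from 7.14 to 8.11 and from 8.41 to 9.17 in HdhQ150 mice, and from 7.5 to 8.39 and from 8.49 to 9.2 in wild-type mice. Age and cortical marker level are therefore not told apart by that fit. The part of tissue content in the age differences was not otherwise tested. The labels give no array batch, so age and any batch that followed it cannot be told apart. At 12 months 7 of the 28 striatal markers were lower in HdhQ150 than in wild-type mice (median -0.26, against 0.602% of all genes lower), the 4 with the smallest p being Scn4b, a sodium channel subunit, at -0.82, the cannabinoid receptor gene Cnr1 at -0.61, the phosphodiesterase gene Pde10a at -0.49, and Penk, the enkephalin precursor, at -0.51. At 18 months 5 of the 28 were lower (median -0.27, against 0.0802% of all genes lower), and Egr2 did not pass there. Of 9 oligodendrocyte markers 0 passed at 12 or 18 months, with 5 and 4 at an unadjusted p under 0.05 and medians of 0.21 and 0.26 (limma). Of 10 astrocyte markers 1, S100b, was higher at 12 months, at 0.38 (limma adjusted p = 0.0051), while 6 of the 10 were negative and the median was -0.03. Of 11 microglia, 12 vessel and 10 choroid plexus markers 0 passed at 12 months and 0 had an unadjusted p under 0.05 (limma). At 12 months 0 of 13 cortical markers passed, with 2 at an unadjusted p under 0.05 (limma). Slc17a7 differed by -1.03 there (SE 0.428, limma unadjusted p = 0.0222).

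**Figure D4:**
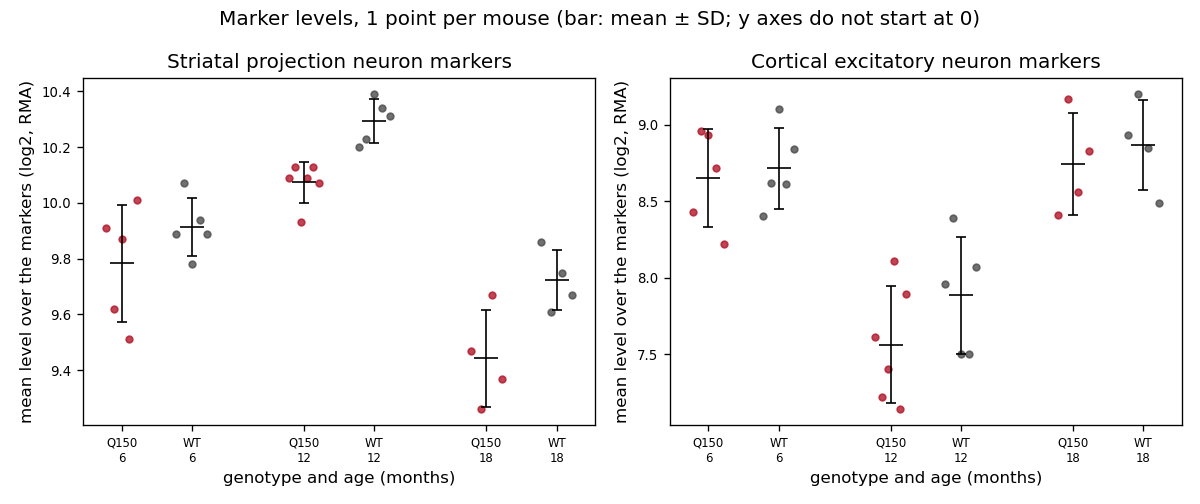
Mean level (log2, RMA) per mouse over 28 striatal projection neuron markers (left) and 13 cortical excitatory neuron markers (right), by genotype and age in months, with HdhQ150 mice in red and wild-type (WT) mice in grey, and bars for the mean ± SD. The striatal mean is highest and the cortical mean lowest at 12 months in both genotypes.

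The members rose and fell together from mouse to mouse. Over the 29 arrays the 45 pairs of members had Pearson correlations of level between 0.479 and 0.93, with a median of 0.782. After each group's mean was subtracted they ran from 0.297 (Egr3 and Npas4) to 0.908 (Arc and Nr4a1), with a median of 0.726, and 45 of 45 were above 0. The values of a pair come from the same arrays, so they share dissection, RNA and normalization, and these are descriptions. In 4 mice 10 of 10 members were above their group's mean, namely 1001 and 1016 (HdhQ150) and WT-1018 (wild type) at 6 months and 464 (HdhQ150) at 12 months. In 5 mice 0 of 10 were above it, namely 1023 and WT-1002 at 6 months, 462 at 12 months and 426 and WT-431 at 18 months. The members of mouse 1023 lay 0.45 below their group means on average and those of WT-1002 lay 0.46 below. Npas4 in HdhQ150 mice of that age spread from 7.29 to 8.86.

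The genes whose level was most like the mean of the 10 members over the 29 arrays were Dusp1, a phosphatase that ends ERK signalling (Pearson r = 0.901), Srf, the factor bound at CArG boxes (0.895), the AP-1 gene Fosl2 (0.87), Spata2l (0.856) and the clock gene Per1 (0.852). With group means subtracted the 5 closest were Per1 (0.917), Dusp1 (0.91), Fosl2 (0.852), Dnajb5 (0.832) and, next below, Nr4a3, a relative of Nr4a1. The level-based choice uses the age differences of these arrays, so the following values are a description. Between 18 and 12 months the 7 genes differed by -0.51 (Nr4a3) to 0.02 (Dnajb5) in HdhQ150 mice and by -0.82 (Nr4a3) to -0.14 (Dnajb5) in wild-type mice. Srf, for one, differed by -0.16 in HdhQ150 mice and by -0.39 in wild-type mice.

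Of 43 other immediate early genes measured, 2 were lower in HdhQ150 mice at 12 months (0.602% of all genes) and 0 higher (0.336%). Homer1, whose short activity-induced form loosens postsynaptic scaffolds, was lower by 0.54 (SE 0.106, limma adjusted p = 0.00707), and Per1 by 0.41 (SE 0.095, adjusted p = 0.0243). The forms of Homer1 were not separated here. Of the 43 differences 36 were negative, as were 47.3% of those of all genes, with a median of -0.12. At 6 and at 18 months 0 of 43 passed, with 7 and 2 genes at an unadjusted p under 0.05 (limma), against 2738 and 1159 of 19938 genes. At 18 against 12 months 2 of the 43 fell and 1 rose in HdhQ150 mice, and 6 fell and 0 rose in wild-type mice. Over all genes 1.61% fell and 4.18% rose in HdhQ150 mice, and 2.07% fell and 3.81% rose in wild-type mice. The 6 were Nr4a3 at -0.82, Dusp1 at -0.61, Per1 at -0.55, Fosl2 at -0.45, Rgs2, a brake on G protein signalling, at -0.72 and Tiparp at -0.64, with limma adjusted p between 0.000582 and 0.0271. Rgs2 and Tiparp were singled out after their values were seen. The list's median in that comparison was -0.04 in HdhQ150 mice and -0.12 in wild-type mice, closer to 0 than over the 10 members.

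Upstream of the members, 3 of 29 kinases, phosphatases and factors were lower in HdhQ150 mice at 12 months (0.602% of all genes) and 0 higher (0.336%), with a list median of -0.02. These were Adcy5, the main adenylyl cyclase of the striatum (also among the striatal markers), and Camk4, a calcium-dependent kinase that acts on CREB, both at -0.38 (limma adjusted p = 0.0241 and 0.0253), and the kinase gene Rps6ka5 at -0.33 (adjusted p = 0.0447). At 6 and at 18 months 0 of 29 passed, with 10 and 8 at an unadjusted p under 0.05 (limma). Of 14 partners of the Egr, AP-1, Nr4a and Npas4 proteins, Junb among them, 0 passed at any age, with 1, 4 and 1 at an unadjusted p under 0.05 at 6, 12 and 18 months (limma). The 2 with the smallest p were the retinoid receptor genes Rxrg, at -0.40 at 18 months (adjusted p = 0.287), and Rxra, at 0.19 at 6 months (adjusted p = 0.173). Rxrg was also lower at 18 than at 12 months, with differences of -1.09 in HdhQ150 mice and -1.03 in wild-type mice (limma adjusted p = 2.56e-06 and 3.36e-06). Of 12 receptors that drive the response, 0 passed, with 4, 5 and 4 at an unadjusted p under 0.05 (limma). The smallest p were those of the dopamine receptor genes Drd1, at -0.46, and Drd2, at -0.44, at 18 months (adjusted p = 0.115 and 0.13). Drd1 at 12 months, at -0.33, came nearer to the threshold after adjustment (limma adjusted p = 0.0895).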

How the data were processed

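Caudate RNA from 29 mice was measured on 1 Affymetrix array each. The deposited values are log2 levels, for which the submitters' processing notes name RMA and Affymetrix Expression Console without versions. Per the labels, a TRIzol-chloroform extraction gave the RNA, which was labelled with biotin. Every column of the table was used. Of 35556 probe sets 21789 had 1 gene symbol in the platform annotation, and the probe set with the highest mean per gene left 19938 genes.

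Tests used limma 3.58.1 (R 4.3.3) (a mean per group, a term for labelled sex, eBayes with trend) on all 29 arrays, with 22 residual degrees of freedom. Two-sided p-values were adjusted over the 19938 genes (Benjamini-Hochberg), with 0.05 as the threshold. Each difference has HdhQ150 or the older age on top. Replicates are separate animals by their numbers, and precision is limited by how many arrays there are. The fit was tested on simulated data.

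Members and lists (other immediate early genes, upstream signalling, partners, receptors, and markers of striatal, cortical and other cell types) were chosen with earlier results of these data known. The text names the 10 members, the genes of each list past the threshold between genotypes (at most 4 by smallest p, otherwise 2), the 5 genes most like the members' mean by each of 2 measures, Htt, Drd1, Drd2, Penk and Slc17a7. Promoter sequences are from RefSeq. Each result was recomputed under 44 other settings, 29 of which leave out 1 mouse.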

Additional observations from a re-analysis of the deposited data

Results flagged for a closer look

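In 3 of 60 pairs of member and group, 1 mouse stood far from the rest of its group by Dixon's test, which chance gives in about 1 in 20 groups. Egr4 was 7.46 in HdhQ150 mouse 426 at 18 months, where the other 3 mice lay between 7.61 and 7.64. Fosb was 8.01 in HdhQ150 mouse 1023 at 6 months, where the other 4 mice lay between 8.32 and 8.39, and this mouse is the one whose Xist did not match its label. Nr4a1 was 9.0 in wild-type mouse WT-1002 at 6 months, a labelled male, where the other 4 mice lay between 10.07 and 10.42. Each of these mice was low for 10 of 10 members, as the counts of members above the group mean show.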

How the results depend on the processing

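Of 76 results on single members, 61 kept their direction under all 44 other settings, and of 22 called ones 4 kept the call throughout. No paired analysis was possible because mouse numbers are unique to each group. The settings of females without mouse 1023 and of the striatal marker mean as a covariate were chosen after seeing the data. The cortical mean did not overlap between 12 months and either other age in either genotype. Fits with it do not tell age from cortical marker level in those comparisons. Fos is below the median level and was not tested among the brighter 50% of genes. The count of members past the threshold was 1 for genotype at 12 months and 2 with only the groups compared. For HdhQ150, 12 against 6 months, it was 0, against 2 with array weights and 1 in females alone, in females without mouse 1023 and without WT-454 and 1023 (leaving out 1 mouse, 0 to 1). Without mouse 1023 alone it was 1. For HdhQ150, 18 against 12 months, it was 2, against 8 with array weights, 9 without WT-454 and 1023, 4 with the cortical mean, with only the groups compared or with mouse 1023 entered as male, and 0 with the striatal mean (2 to 4). For HdhQ150, 18 against 6 months, it was 5, against 3 with the striatal mean and up to 7 in other settings (2 to 6). For wild type, 12 against 6 months, it was 2, against 6 with the cortical mean, 1 with all probe sets or array weights, and 0 with array medians subtracted, in females alone, in females without mouse 1023, without WT-454 and 1023 or with the striatal mean (0 to 5). For wild type, 18 against 12 months, it was 10, against 0 with the striatal mean (7 to 10). The Fos call there was also lost in females alone, with only the groups compared, with all probe sets and with array weights. With the cortical mean the calls on Fos and Npas4 were lost. For wild type, 18 against 6 months, it was 2, against 4 with array medians subtracted or array weights, 5 with 1023 entered as male, 6 with the cortical mean, in females alone or without WT-454 and 1023, 7 in females without 1023, and 1 with the striatal mean (1 to 6).
The uncalled genotype differences near 0 changed sign. At 6 months Egr4 became -0.07 and Fos -0.04 in females alone, and Fos -0.01 with only the groups compared. With array weights Egr1 became 0.10, Arc 0.00 and Nr4a1 0.01, and without WT-454 and 1023 Egr1 became 0.10, Junb 0.02 and Nr4a1 0.03. Egr1 became 0.03 with the cortical mean and Npas4 0.00 in females without 1023. With the cortical mean Egr4 became 0.01 between genotypes at 18 months and 0.05 in HdhQ150 mice between 12 and 6 months. Leaving out 1 mouse gave -0.08 to 0.11 for Egr1, -0.02 to 0.14 for Egr4, -0.11 to 0.14 for Fos, -0.15 to 0.03 for Junb and -0.34 to 0.04 for Nr4a1 at 6 months, and -0.03 to 0.15 for Fos at 12 months. At 18 months it gave -0.26 to 0.01 for Egr1, -0.08 to 0.03 for Egr4, -0.03 to 0.29 for Arc, -0.03 to 0.22 for Npas4 and 0.00 to 0.42 for Nr4a1, and for Npas4 in HdhQ150 mice between 18 and 6 months -0.34 to 0.08. The cause was not tested.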
